A study of Mus musculus with 6 samples.

Results

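Genes of contractile myofibroblasts were followed in mouse liver RNA: Acta2, Tagln, Myl9, Cnn1, Actg2, Myh11, Des, Pdgfra, Pdgfrb and Thy1. They were taken by symbol from a list of markers of activated stellate cells and smooth muscle, and all 10 of 10 symbols were found among the 16426 genes of the deposited table. The study sequenced bulk liver RNA of 6 male C57/BL mice, 3 normal animals that received saline and 3 animals given 20% carbon tetrachloride (CCl4), a solvent toxic to hepatocytes, over 10 weeks to bring about fibrosis. A further group that received didymin together with CCl4 is named in the design and was not analysed here. The table compares a set of 3 libraries, ly_A (set A), with another, ly_B (set B). Neither name matches a sample's label, so which set is the normal and which the CCl4 group is not stated, and no difference below is given as an effect of CCl4. For the same reason the 18 columns of single libraries entered no calculation. The results rest on the log2 fold change, p and adjusted p that the authors deposited, with no level per animal, and the label of liver was not checked against hepatocyte levels.

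Hepatic stellate cells are the pericytes of the liver sinusoid. When liver is injured they can turn into myofibroblasts, which lay down matrix and contract through the same actin and myosin apparatus as smooth muscle. Platelet-derived growth factor (PDGF) drives their division and migration through receptors that are tyrosine kinases. Many smooth muscle genes are switched on by serum response factor (SRF), which binds a sequence called the CArG box together with coactivators of the myocardin family. In whole liver the same genes are also expressed in the muscle layer of arteries and portal veins.

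The CArG box is 2 C, then 6 letters that are A or T, then 2 G. It is shown here because SRF is a known regulator of contractile genes. RefSeq promoters (GRCm38.p6, a later build than that of the deposited table) were held for 5 of the 10 genes: Acta2, Myl9, Cnn1, Des and Pdgfra. In the 250 bases before the listed start and on both strands, the full CArG box was found in the promoter of Myl9 alone among these 5, and in 1.47% of all 32851 promoters. A form with 1 G or C among its central letters was found in those of Myl9 and Acta2, and in 7.24% of all promoters. Each stretch is printed 5′ to 3′ on the gene's strand with the match in capitals. The printed stretch with the full box of Myl9 spans chr2:156775293-156775322 (plus strand) and that with its other match chr2:156775355-156775384. The printed stretches with the matches of Acta2 span chr19:34255438-34255467 and chr19:34255388-34255417 (minus strand). The listed start of Acta2 has an offset of -212 bases in chromosome position from the start of the RefSeq gene. Both of its matches therefore lie within the annotated bounds of the gene. For Myl9 the offset is 56 bases, and its matches lie before the gene's start. A further pair of motifs was searched for in the same way: TATAAA, the TATA box, was found in 0 of the 5 and in 12.4% of all promoters, and CATTCC, which TEAD factors bind, in that of Acta2 and in 12.6% of all promoters. A match describes these letters and does not show binding.
Myl9, full box: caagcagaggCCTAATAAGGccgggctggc
Myl9, form with 1 G or C: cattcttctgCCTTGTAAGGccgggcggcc
Acta2, farther from the start: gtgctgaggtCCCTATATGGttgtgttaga
Acta2, nearer to the start: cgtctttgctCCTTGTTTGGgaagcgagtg

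Whether the actin genes can be told apart by reads was checked on their transcripts, since Acta2 and Actg2 encode almost the same protein. Their coding sequences (1134 and 1131 bases, GENCODE M21, GRCm38) were identical at 84.2% of aligned bases. The pair of 60-base stretches within 1 exon that differ least is printed, with the 4 differing bases in capitals. It lies at chr19:34243320-34243379 in Acta2 and at chr6:83516271-83516330 in Actg2, both on the minus strand.
Acta2: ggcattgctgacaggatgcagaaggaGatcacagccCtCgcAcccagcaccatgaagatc
Actg2: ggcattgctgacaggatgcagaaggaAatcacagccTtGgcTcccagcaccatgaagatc
Of the 50-base windows of the Acta2 transcripts, 0.326% occurred in another gene, and that gene was the pseudogene Actg-ps1. None of the 1592 windows of Actg2 did. For Myh11 the share was 0.391%, all of it in Myh9, the myosin heavy chain of non-muscle cells. Tagln differs from these genes in another way: 47.6% of its windows also lie in an annotated antisense transcript, and the share was 5.81% for Des and 5.10% for Pdgfra. Whether the authors counted by strand is not given in the sources used here, so reads from Tagln and from its antisense partner may not have been told apart.

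A gene is called here when the authors' adjusted p is under 0.05. Of the 10 genes, 9 had an adjusted p below 1 and count as tested. By the authors' deposited table, Myl9 and Thy1 were called towards set A, 2 of these 9, and Pdgfrb was the 1 called towards set B. Among all 14114 tested genes 35.8% were called, 18.1% towards set A and 17.7% towards set B, so the number called among the members is near the background. Their median log2 fold change, computed from the authors' deposited table, was 1.79, against 0.07 over all tested genes. In bulk tissue a smaller number of cells of a type and less RNA per cell cannot be told apart.

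The 6 tested contractile and filament genes all had a positive log2 fold change, that is, towards set A, and 1 of them passed the test. Over all tested genes the share called towards set A was 18.1%. Myl9, the regulatory light chain whose phosphorylation starts contraction, stood at 1.79 in the authors' deposited table, a 3.45-fold difference (adjusted p = 0.00331). The table deposits no standard error. If its p is that of a two-sided Wald test, which divides the estimate by its standard error, the standard error implied for Myl9 is 0.53 and the 95% interval runs from 1.69-fold to 7.04-fold. All standard errors and intervals below are implied in this way from the authors' deposited table and hold only under that assumption.

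Actg2 and Myh11, 2 genes of mature smooth muscle, lay just outside the threshold. The authors' deposited table gives Actg2, the enteric smooth muscle actin, a log2 value of 2.86 (p = 0.0216, adjusted p = 0.0579), with an implied standard error of 1.25. Myh11, the smooth muscle myosin heavy chain, had 2.31 there (p = 0.0182, adjusted p = 0.0507), and its implied interval ran from 1.31-fold to 18.8-fold higher in set A. Cnn1, calponin, which restrains actomyosin in smooth muscle, had a log2 value of 2.56 in the authors' deposited table with an adjusted p of 0.292. Its implied standard error of 1.88 was larger than that of 98.7% of tested genes. The estimates for Actg2, Cnn1 and Myh11 were thus larger than that for Myl9, and each had a larger implied error. Differences between members were not tested.

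Acta2 and Tagln had the smallest estimates of the contractile genes. Acta2, the smooth muscle alpha-actin by which myofibroblasts are usually stained, has a log2 value of 1.22 and an adjusted p of 0.327 in the authors' deposited table. The implied interval for Acta2, from 0.636-fold to 8.53-fold in set A relative to set B, includes equal levels as well as a large difference. Tagln, which encodes the actin-binding protein SM22, has a log2 value of 0.29 in the authors' deposited table, with an adjusted p of 0.581. Its implied interval was narrower, from 0.73-fold to 2.05-fold, so a higher level in set A of the size estimated for Myl9 lies outside it. Whether reads of the antisense transcript entered this value was not tested.

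**Figure D1:**
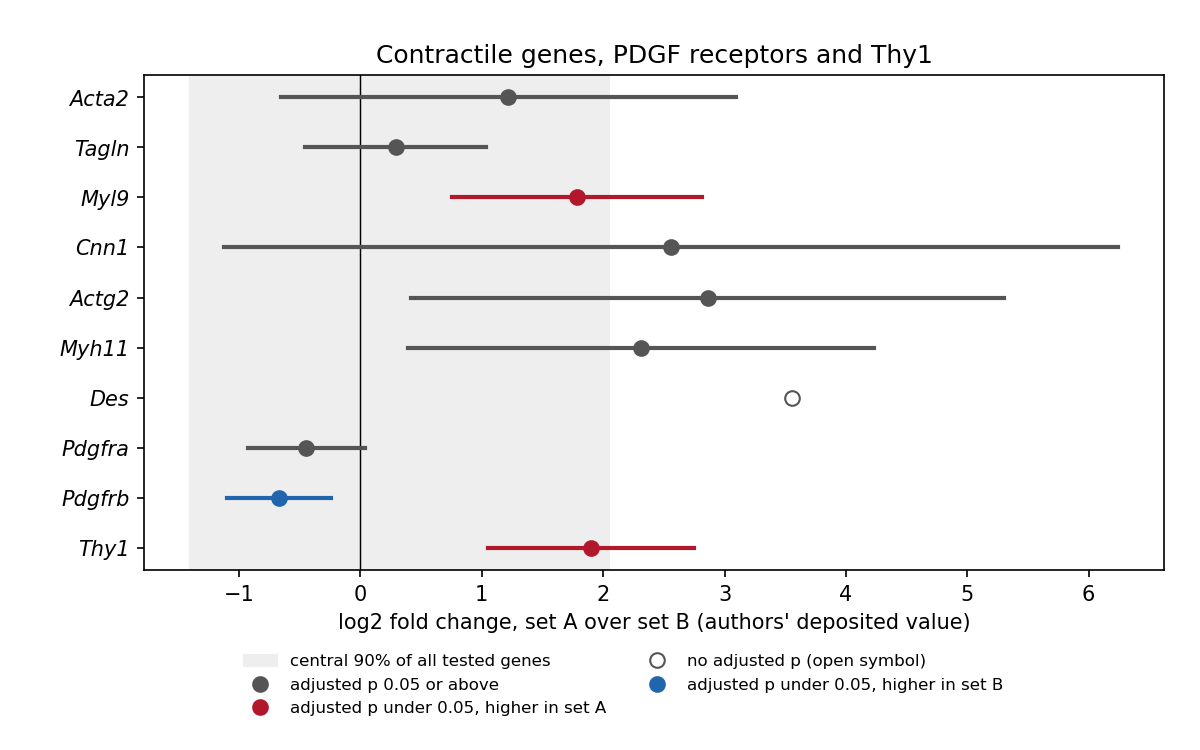
The horizontal axis gives the log2 fold change of set A over set B from the authors' deposited table for each of the 10 genes, with the implied 95% interval as a line and the central 90% of all tested genes (-1.40 to 2.04) shaded. Red and blue mark calls towards set A and set B, grey marks genes that were not called, and the open circle is Des, which has no adjusted p below 1; the intervals of Acta2, Tagln, Cnn1 and Pdgfra cross 0.

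Des, the intermediate filament desmin of muscle and stellate cells, was not tested. The authors' deposited table lists it at a log2 value of 3.56 with p and adjusted p of exactly 1, so no error can be derived. Whether such a 1 is a computed p or stands in for a missing one, as when a test is withheld for an outlying count, is not stated, so the listed value of Des is no sign that the sets are alike. A p of exactly 1 stood in 122 rows of the authors' deposited table, and in all 122 the log2 value was positive. Ckm, the creatine kinase of skeletal muscle, Mb, myoglobin, and Myh4, a fast skeletal myosin, were among these rows, at fitted log2 values of 27.96, 26.96 and 27.44 in the authors' deposited table. Liver enzymes were among them too, such as the sulfotransferase Sult2a1 at 25.16 and the cytochrome Cyp2b13 at 23.54 in the authors' deposited table. Values of this size are no folds between measured levels. Of the 10 markers of skeletal and cardiac muscle on the list used here, 7 had a p of exactly 1, and so did Tpm2 and Synpo2 among the smooth muscle genes. By the authors' deposited table the 2 tested muscle markers of that list were not called: Tnnt2 had 1.81 (adjusted p = 0.0861) and Actc1 had 0.86 (adjusted p = 0.815). Outside that list, the muscle gene Casq2 was called towards set A, at 4.46 (adjusted p = 0.00484) in the authors' deposited table. Cacng1, another muscle gene, was not called there, at 6.04 (adjusted p = 0.0688). Calls among further muscle genes were not counted. The muscle and enzyme genes of this paragraph, with Tpm2 and Synpo2, were named after their values were seen. Skeletal muscle expresses desmin as well, and the part of such markers in the values of Des and of the other contractile genes was not tested.

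**Figure D2:**
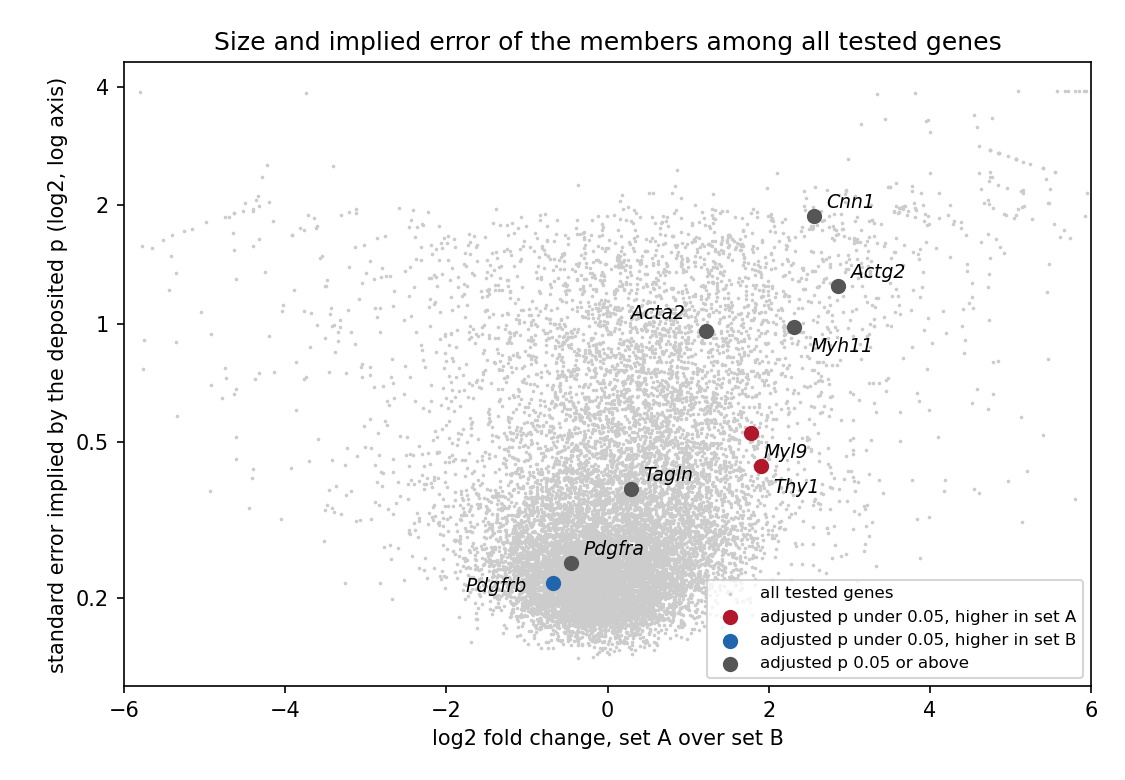
Each point is a tested gene, with its log2 fold change of set A over set B on the horizontal axis and the standard error implied by the deposited p on a vertical log axis; 50 genes beyond a log2 value of 6 in size lie outside the plot. The PDGF receptors lie low, with implied errors of 0.25 and 0.22, whereas Acta2, Myh11, Actg2 and Cnn1 lie to the right and high, between 0.96 and 1.88, against a median of 0.29 over all tested genes.

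The PDGF receptors had negative log2 fold changes, towards set B. Pdgfrb, the receptor by which stellate cells respond to PDGF-B, stood at -0.67 in the authors' deposited table, which is 1.60-fold higher in set B (adjusted p = 0.00842). The implied standard error for Pdgfrb was 0.22 and the interval for set A relative to set B ran from 0.466-fold to 0.843-fold. Pdgfra, the receptor for PDGF-A and PDGF-C, had -0.45 in the authors' deposited table and was not called (adjusted p = 0.144). The Pdgfra interval, from 0.526-fold to 1.02-fold, overlapped most of that of Pdgfrb. Pdgfrb thus lay opposite in sign to Myl9 and to Thy1.

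Thy1, a glycoprotein anchored in the membrane of fibroblasts and also of T cells, stood at 1.90 in the authors' deposited table, a 3.73-fold difference towards set A (adjusted p = 0.000102). Its implied interval ran from 2.07-fold to 6.73-fold. As background for the 2 lists that follow, 18.1% of all tested genes were called towards set A and 17.7% towards set B. By the authors' deposited table, 3 of 9 tested T cell markers were called towards set A and 0 towards set B, and the 9 values were all positive with a median of 1.74. The 2 largest among those called were Cd4, the co-receptor of helper T cells, at 2.43 (adjusted p = 0.00233) and Cd3e, a chain of the T cell receptor complex, at 1.80 (adjusted p = 0.0292) in the authors' deposited table. Portal fibroblast markers were called towards set A in 6 of 13 cases and towards set B in 0, with a median of 1.20 and 2 negative values, down to -0.29, in the authors' deposited table. Clec3b, tetranectin, stood at 2.83 there (adjusted p = 0.0143) and Mfap4, a protein of elastic fibres, at 1.55 (adjusted p = 0.00131). The part of T cells or portal fibroblasts in the value of Thy1 was not tested.

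None of the 13 other markers of pericytes and vascular smooth muscle on the list used here was called, against 35.8% of all 14114 tested genes. In the authors' deposited table the 13 tested genes of that list had a median of 0.00, a range from -0.28 to 1.43 and a smallest adjusted p of 0.162, and none had an unadjusted p under 0.05. The highest value was that of Cspg4, the proteoglycan NG2, named here after it was seen. No count under another tool was made.

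Other genes of the contractile apparatus were called in both directions. By the authors' deposited table, 15 of 18 listed were tested, 4 were called towards set A and 2 towards set B, with a median of 0.50. The called shares over all tested genes were 18.1% towards set A and 17.7% towards set B. Pdlim3, a protein of actin filament anchors in muscle, was at 3.07 (adjusted p = 0.00182) and Pln, phospholamban, which restrains the calcium pump, at 2.19 (adjusted p = 0.0464) in the authors' deposited table. The call of Pln ended with the p adjusted over all rows (adjusted p = 0.0540). Mylk, the kinase that phosphorylates the Myl9 light chain, was also called towards set A, at 1.35 (adjusted p = 2.12e-05) in the authors' deposited table, and is named here after its value was seen. Cald1, caldesmon, which is made in smooth muscle and non-muscle forms, stood at -2.03 (adjusted p = 6.34e-17) and Pdlim7 at -1.44 (adjusted p = 8.97e-06) in the authors' deposited table.

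The actins, myosins and actin-binding proteins found in most cells were mostly towards set B where they were called. Of 18 tested in the authors' deposited table, 9 were called towards set B and 1 towards set A, with a median of -0.73. The shares over all tested genes were 17.7% towards set B and 18.1% towards set A. Vcl, vinculin of focal adhesions, had -2.18 (adjusted p = 4.92e-07) and Myh9 had -1.71 (adjusted p = 3.35e-12) in the authors' deposited table. Vim, the intermediate filament of mesenchymal cells, was the gene called towards set A, at 0.68 (adjusted p = 0.00108) in the authors' deposited table. Whether this list differs from the smooth muscle genes was not tested.

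Among regulators, Srf itself was 2.07-fold higher in set B by the authors' deposited table (log2 -1.05, adjusted p = 1.53e-05). Mkl2, a coactivator of SRF now called Mrtfb, stood at 1.02 (adjusted p = 4.25e-05) in the authors' deposited table. Myocd, myocardin, the coactivator of smooth muscle, had 2.57 in the authors' deposited table with an adjusted p of 0.383 and an implied standard error of 2.23. By the authors' deposited table, 1 of the 11 tested genes of this list was called towards set A and 3 towards set B. Over all tested genes the called shares were 18.1% and 17.7%, in that order.

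The PDGF ligands were divided. For scale, 17.7% of all tested genes were called towards set B and 18.1% towards set A. The authors' deposited table puts Pdgfa, at -1.04 (adjusted p = 0.0112), and Pdgfc, at -1.10 (adjusted p = 0.000822), towards set B. Pdgfb and Pdgfd, the ligands that bind PDGFR-beta, had 0.59 (adjusted p = 0.261) and 0.67 (adjusted p = 0.329) there and were not called. Of 15 tested proteins that relay signals from PDGF and other growth factor receptors, the authors' deposited table has 8 called towards set B and 0 towards set A, with a median of -0.54. Src, a tyrosine kinase, stood at -2.47 (adjusted p = 1.96e-10) and Ptpn11, the phosphatase SHP2, at -1.46 (adjusted p = 3.58e-07) in the authors' deposited table. These proteins serve many receptors, so their values are not specific to PDGF.

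**Figure D3:**
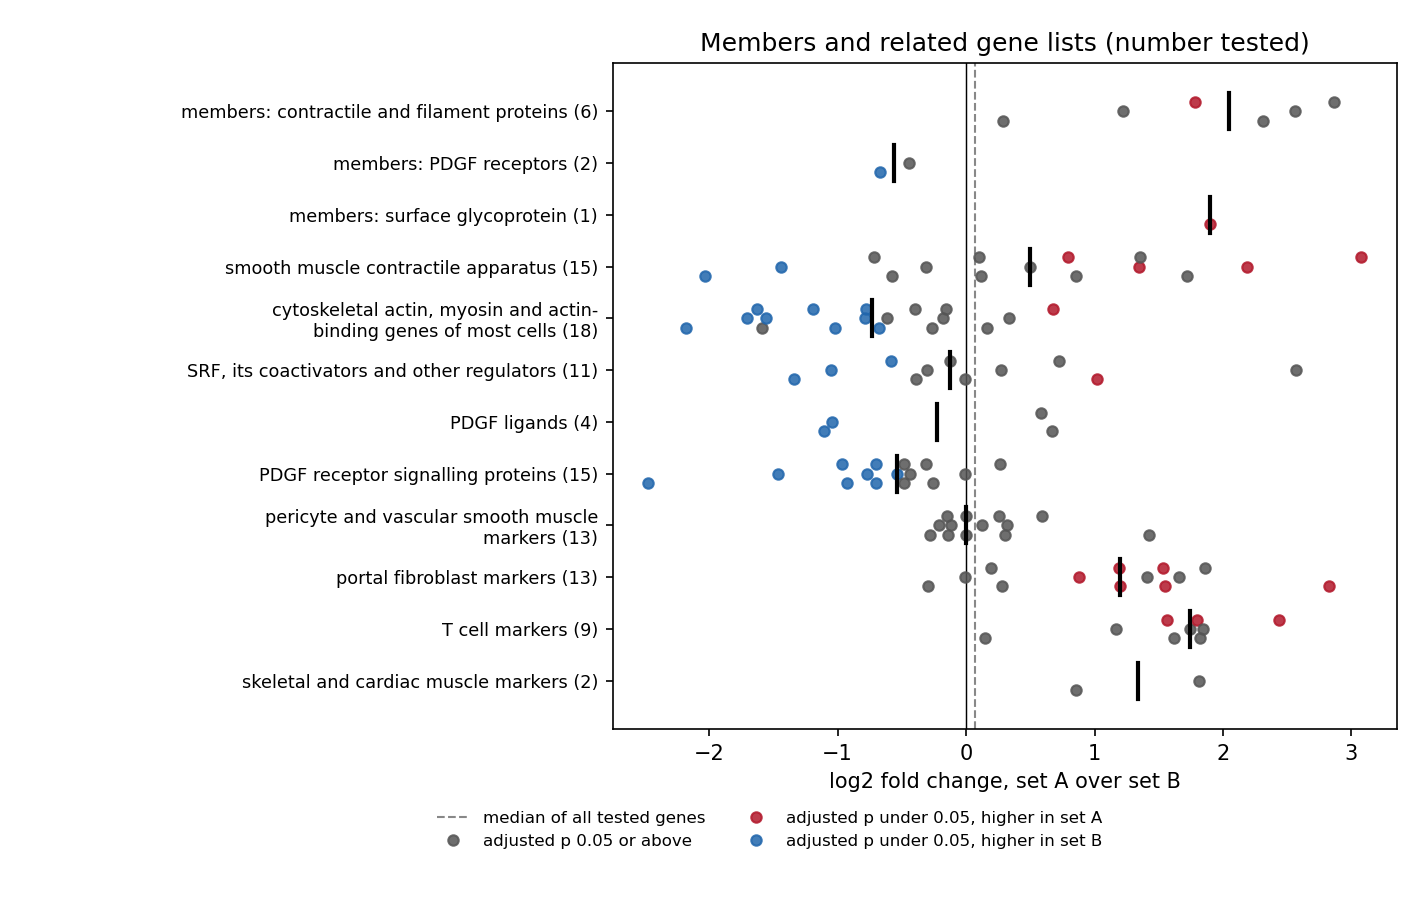
Each point is a tested gene of a list, with its log2 fold change of set A over set B from the authors' deposited table on the horizontal axis; black bars are list medians, the dashed line is the median of all tested genes, and colours mark calls as in the plot of the 10 genes. The 6 contractile genes and the T cell and portal fibroblast lists have medians of 2.05, 1.74 and 1.20, and the lists of general cytoskeleton and of receptor signalling have medians of -0.73 and -0.54.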

How the data were processed

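Each row of the deposited table is a gene. The authors' log2 fold change, p-value and adjusted p-value compare ly_A with ly_B, per the file headers, and a positive value is read as higher in ly_A, which is named first. In the table's first lines, read by eye, a negative value went with lower values in the ly_A columns. Per the submitters' processing notes, DESeq2 was used with the build mm9. Not given in the sources used here are the aligner, counter, annotation and strand setting. The labels' protocols name Trizol and a NEBNext kit. The 18 single-library columns match no sample's labels and, beyond that reading by eye, were left out by choice, so depth and levels were not examined and no test was refitted.

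An adjusted p of exactly 1 stood in 2312 rows, 122 with a p of exactly 1 and 2190 with a smaller p. The adjusted p of the remaining 14114 rows matched a Benjamini-Hochberg adjustment over those rows to a relative difference of 9.47e-13, and these count as tested. Standard errors were derived from the deposited log2 fold change and p as for a two-sided Wald test, and 95% intervals from these. The code for the standard errors and for the adjustment was run on simulated p-values made by the same Wald formula. That run checks the code, and not whether the deposited p is a Wald p.

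The members and lists were chosen with earlier results of these data known. The naming rule takes the 10 members, Srf, Myocd, the 4 PDGF ligands and the 2 called genes with the largest difference per direction in each of the 9 other lists. A gene that this rule takes is not reported here, and genes named outside it are marked as such. Promoters came from RefSeq and transcripts from GENCODE M21, both GRCm38. Python 3.11.15, pandas 2.3.3, SciPy 1.17.1 and Biopython 1.88 were used. As alternatives, calls were counted at 0.01, with at least a 2-fold difference, and after adjustment over all 16426 rows.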

Additional observations from a re-analysis of the deposited data

How the results depend on the processing

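Of the 9 tested members, 3 were called at an adjusted p under 0.05, 3 at 0.01 and 2 with a minimum difference of 2-fold, by the authors' deposited table. With the p adjusted over all 16426 rows, 3 were called. The call that ended was that of Pdgfrb, whose log2 value of -0.67 is below 2-fold in size. Among the 112 related genes in the table, 100 of them tested, the counts were 39, 26, 26 and 37, in the same order. The called share towards set A among them went from 15 of 39 to 7 of 26 at 0.01 and to 12 of 26 with a 2-fold difference. Among all 14114 tested genes 35.8% were called at 0.05. The share over all genes was not counted at the other settings, so the counts there have no background beside them. Des has no adjusted p below 1 and was left out of the comparison of settings. No paired analysis was possible because the library columns could not be tied to the labelled samples. Leaving out single libraries was not done, since their columns were left out by choice, so whether 1 library decides a value was not tested.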
